A study of Mus musculus with 12 samples.

Results

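Chromatin accessibility was examined at a set of 42 mouse Rab GTPase genes, none of them a Rab5 gene, of 21924 protein-coding genes in the annotation (GENCODE vM21, GRCm38). Accessible regions were obtained by merging peaks of all 12 ATAC-seq libraries wherever they shared at least 1 bp, which gave 263785 regions. A region was assigned to a Rab gene when it lay in the gene body or within 5 kb upstream of an annotated start site. This gave 321 regions, at least 1 for each of the 42 genes and none shared between 2 of them. A region was called a promoter when it overlapped the 1 kb on either side of a start site. By this definition 97 regions were promoters, 192 intronic, 18 exonic and 14 upstream.

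The libraries came from primary cortical neurons of wild-type C57BL/6 mouse embryos at E18, with 3 libraries in each of 4 groups. One group received PBS for 7 days. The other groups received preformed fibrils of α-synuclein (PFF) for 7 days, either alone, with the LRRK2 kinase inhibitor MLi-2 during the last 5 days, or with antisense oligonucleotides against Rab5 (Rab5 ASO) during the last 3 days. No group received MLi-2 or the ASO without PFF, and no control oligonucleotide group is analysed here. For the treated libraries 1 label field names PBS where the title and the treatment field name PFF, and the latter were followed. ATAC-seq reads open DNA and not RNA, so these data hold no check of the Rab5 knockdown. Per the study's methods a biological replicate was the culture from 1 pregnancy, and cultures of a pregnancy were divided at random among treatments. The labels do not say whether libraries with the same replicate number share a pregnancy.

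Rab proteins are small GTPases that act as switches on membranes. In the GTP-bound state they recruit effectors that move, tether and fuse vesicles, and each member marks its own step, from the endoplasmic reticulum and Golgi through early, recycling and late endosomes to lysosomes, synaptic vesicles and cilia. Exchange factors load them with GTP, activating proteins make them hydrolyse it, and GDP dissociation inhibitors keep them soluble between rounds. In neurons this traffic supplies synapses, carries endosomes along axons and delivers cargo to lysosomes. An accessible promoter or intronic region marks DNA from which nucleosomes are displaced, and it is not a measure of RNA or protein.

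The libraries held 137417 to 184717 peaks each, all labelled batch 1. Relative sequencing depth was estimated as the commonest background of the peak calls divided by the width of the shortest peak. It ran from 1.05 to 1.31 with the ASO and from 0.775 to 1.03 across the other 9 libraries, where the mean of the 12 libraries is 1. The background alone was 1.815 to 2.113 with the ASO and 1.503 to 1.899 in the other 9, which overlap. With the ASO the shortest peak of a library was 53 to 59 bp wide, against 62 to 66 bp without it, and the median width was 112 to 124 bp against 127 to 139 bp. Depth was also lower in PFF, at 0.775 to 0.919, than in PFF+MLi-2, at 0.957 to 1.03, and median width was greater in PFF, at 135 to 139 bp, than in PBS, at 127 to 134 bp, without overlap. Depth or peak width thus moved with treatment in each of these comparisons, and their part in the results was not tested. Promoters of all 8 neuronal markers and all 4 interneuron markers had a peak in all 12 libraries. This was so for 3 of 4 astrocyte, 3 of 5 oligodendrocyte-lineage and 1 of 3 endothelial markers but for 0 of 5 microglial markers, of which Cx3cr1 and C1qb had no promoter peak in any library.

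Peak height was the fold enrichment over local background at the peak summit. Since fold enrichment depends on depth, each region was described by its percentile within the peak list of its own library, where 100 is the tallest peak. A percentile also depends on how many weaker peaks the list holds. The reference sequence under the summits that carry the results below is shown first, as 201 bases centred on the summit in the direction of the gene (RefSeq, GRCm38.p6). The first 5 windows are the tallest Rab promoter, Rab9, with GC boxes (GGGCGG or its complement) in capitals, and the 4 lead promoters that hold the E-box CACGTG, in capitals, the core bound by basic helix-loop-helix factors of the USF, MYC and TFEB families:
Rab9 chrX:166479676-166479876 (-): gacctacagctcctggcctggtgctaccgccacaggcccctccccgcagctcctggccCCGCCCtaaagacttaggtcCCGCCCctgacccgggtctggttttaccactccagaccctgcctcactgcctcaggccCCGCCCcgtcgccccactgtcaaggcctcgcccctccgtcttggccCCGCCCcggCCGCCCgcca
Rab20 chr8:11478605-11478805 (-): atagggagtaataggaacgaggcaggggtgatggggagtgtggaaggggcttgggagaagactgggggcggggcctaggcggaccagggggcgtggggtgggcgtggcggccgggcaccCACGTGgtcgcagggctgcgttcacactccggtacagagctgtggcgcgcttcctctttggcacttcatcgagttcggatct
Rab21 chr10:115315486-115315686 (-): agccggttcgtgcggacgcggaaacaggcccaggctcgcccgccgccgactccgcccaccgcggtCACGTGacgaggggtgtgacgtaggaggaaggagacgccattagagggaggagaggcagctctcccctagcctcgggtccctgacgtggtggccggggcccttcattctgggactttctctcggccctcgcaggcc
Rab24 chr13:55321899-55322099 (-): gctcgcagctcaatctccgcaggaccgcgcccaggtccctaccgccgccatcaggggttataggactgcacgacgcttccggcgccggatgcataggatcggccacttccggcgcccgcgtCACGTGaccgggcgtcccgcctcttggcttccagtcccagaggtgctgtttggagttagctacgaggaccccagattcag
Rab31 chr17:65772575-65772775 (-): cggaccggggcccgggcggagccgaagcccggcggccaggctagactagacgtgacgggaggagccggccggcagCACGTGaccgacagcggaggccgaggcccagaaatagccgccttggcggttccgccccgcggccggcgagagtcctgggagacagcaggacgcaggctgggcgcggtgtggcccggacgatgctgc

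The next 4 windows lie under regions whose height rank differed between groups, with matches on either strand in capitals. In Rab3b and Rab3c these are the AP-1 motif TGANTCA, in Rab3c also the CCAAT box, and in Rab13 the GC box. The Rab7b window held none of the 7 motifs searched. The fifth such region, in Rab27b, is described without its sequence:
Rab3c chr13:110141321-110141521 (-): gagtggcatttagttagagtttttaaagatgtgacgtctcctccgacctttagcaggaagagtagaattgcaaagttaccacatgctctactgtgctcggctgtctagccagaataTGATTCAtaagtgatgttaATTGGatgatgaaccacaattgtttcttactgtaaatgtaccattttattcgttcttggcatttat
Rab3b chr4:108941186-108941386 (+): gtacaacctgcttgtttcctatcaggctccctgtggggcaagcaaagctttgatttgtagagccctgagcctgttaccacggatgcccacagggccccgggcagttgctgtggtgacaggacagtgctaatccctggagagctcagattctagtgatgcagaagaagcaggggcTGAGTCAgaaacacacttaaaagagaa
Rab7b chr1:131696532-131696732 (+): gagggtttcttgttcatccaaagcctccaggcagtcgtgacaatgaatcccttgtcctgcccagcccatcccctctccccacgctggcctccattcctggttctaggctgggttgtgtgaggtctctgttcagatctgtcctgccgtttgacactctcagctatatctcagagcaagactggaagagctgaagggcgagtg
Rab13 chr3:90220620-90220820 (+): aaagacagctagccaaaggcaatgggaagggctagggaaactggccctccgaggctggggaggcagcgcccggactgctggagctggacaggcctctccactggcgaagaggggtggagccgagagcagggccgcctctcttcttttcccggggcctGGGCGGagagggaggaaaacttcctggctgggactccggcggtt

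All 42 Rab genes had a promoter region with a peak in all 12 libraries, against 13772 of 21924 protein-coding genes (62.8%). Each gene was then represented by its lead promoter, the promoter region with the highest mean percentile over the 12 libraries. The median lead promoter of the Rab genes lay at the 94.3 percentile, beside 92.4 for the 13756 protein-coding genes whose lead promoter had a peak in every library. A mean above the 90 percentile was reached by 30 of the 42 Rab genes (71.4%) and by 58.3% of those genes. Of the lead promoters, 14 also overlapped the promoter window of another gene, for example Rab2b with Tox4, Rab6a with Mrpl48, Rab13 with Rps27 and Rab24 with Prelid1, and the signal there cannot be assigned to 1 of the 2 genes.

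The tallest lead promoter was that of Rab9, which returns receptors from late endosomes to the trans-Golgi network (chrX:166479308-166479985). It lay between the 99.51 and 99.96 percentile in the 12 libraries. Rab18, a regulator of lipid droplets and the endoplasmic reticulum, followed at 99.1 ± 0.317 (SD over 12 libraries), then the Golgi protein Rab30 at 99.0 ± 0.466, the synaptic vesicle protein Rab3c at 98.9 ± 0.472 and the early endosomal Rab22a at 98.4 ± 0.303. Rab7, which drives fusion of late endosomes with lysosomes, was at 98.2 ± 1.11. In the order of the 42 lead promoters, 1 of the 41 neighbouring pairs differed by more than the SD of their within-library difference, namely Rab9 above Rab18, which held in 12 of 12 libraries.

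The other end of the order held 5 lead promoters with a mean below the 75 percentile. These belonged to Rab26, which directs synaptic vesicles to autophagy, at 48.1 ± 14.5, Rab31, which acts between the trans-Golgi network and endosomes, at 57.4 ± 9.29, Rab7b at 59.9 ± 17.9, the secretory granule protein Rab37 at 61.8 ± 8.72 and Rab38 of lysosome-related organelles at 73.8 ± 10.6. Median summit depth was 16 to 37.5 fragments at these 5 promoters and 53 to 78 at the 6 tallest.

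**Figure D1:**
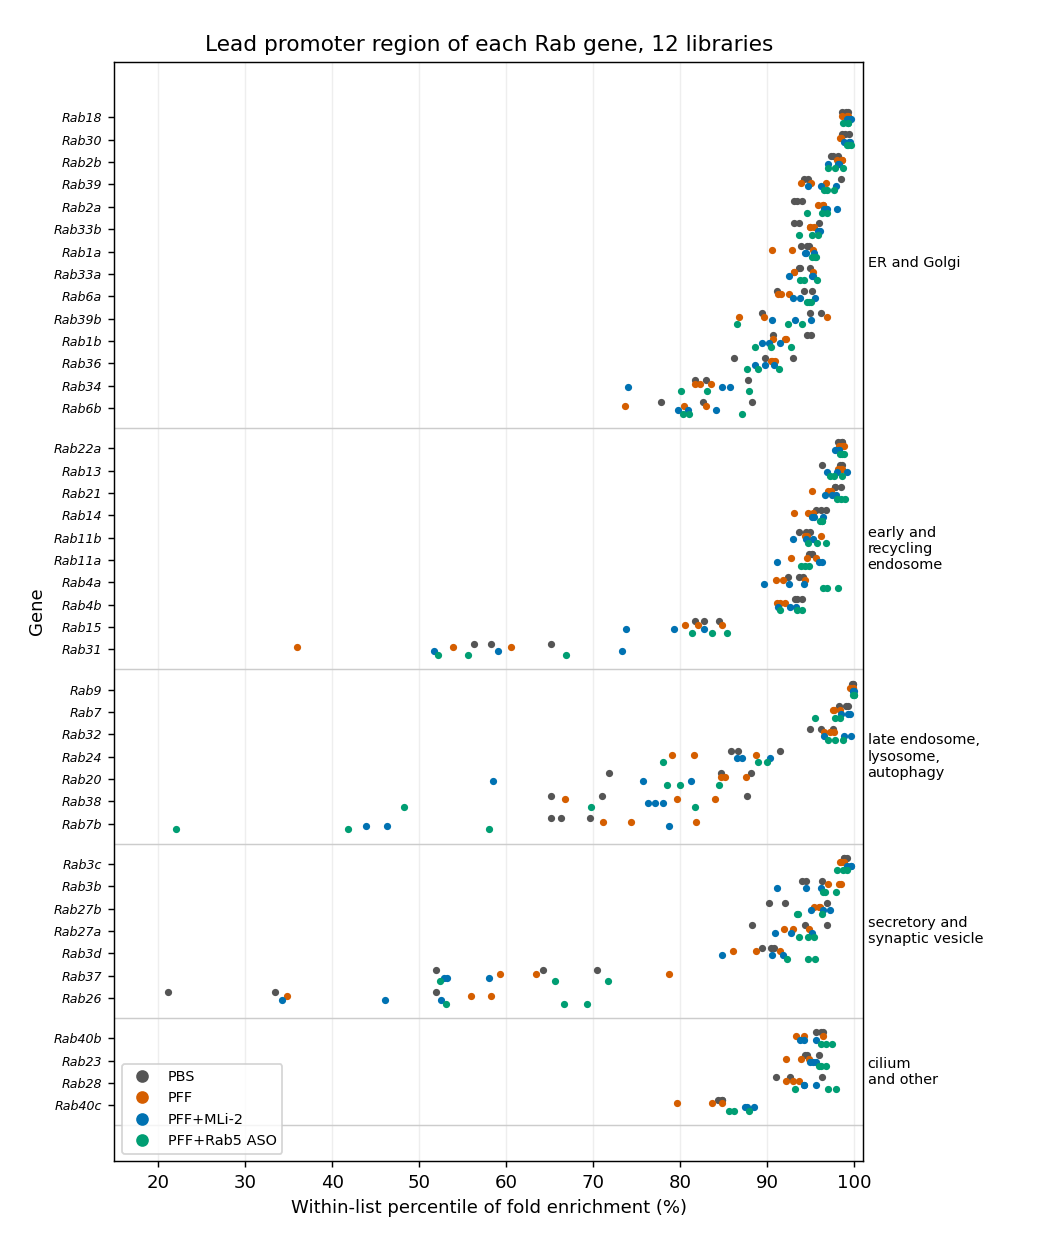
Within-list percentile of fold enrichment (horizontal axis, %) of the lead promoter of each of the 42 Rab genes (vertical axis, grouped by role), with 1 point per library coloured by group. Most genes sit above the 90 percentile in all 4 groups, with the means of Rab26, Rab31, Rab7b, Rab37 and Rab38 below the 75 percentile.

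By role, the median lead promoter percentile was 94.3 for the 14 ER and Golgi genes, 94.7 for the 10 genes of early and recycling endosomes, 93.5 for the 7 of secretory and synaptic vesicles, 94.6 for the 4 of cilium and other roles and 86.2 for the 7 of late endosome, lysosome and autophagy. The last group ranged from Rab7b at 59.9 to Rab9 at 99.8, so its lower median is no property of every member. Across treatments the medians of the role groups stayed close. For ER and Golgi genes the medians, in the group order PBS, PFF, MLi-2, ASO, were 93.8, 93.3, 94.5 and 94.8, and for late endosome and lysosome genes 88.0, 85.8, 88.0 and 85.6.

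Base composition under the lead promoters was that of promoters in general. Their 201-base windows had a median GC content of 65.2% and 15.5 CpG, beside 65.7% and 17 at the 12489 lead promoter regions of all protein-coding genes with a peak in every library. A GC box was found in 29 of 42 (69.0%, beside 62.5%), CCAAT in 13 (31.0%, beside 32.1%), an ETS core (CCGGAAG) in 5 (11.9%, beside 14.2%) and CACGTG in 4 (9.52%, beside 8.24%). The cyclic AMP response element TGACGTCA was in 0 (beside 3.28%), and the NRF1 core GCGCATGC and AP-1 in 1 each. Both strands were searched. All 4 CACGTG matches fell among the 17 genes of early, recycling or late endosomes, lysosome and autophagy and 0 among the other 25, a split noticed after the matches were seen and not tested.

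At 3 of these 4 E-box promoters the PFF libraries overlapped the PBS libraries. Rab20 is a Rab of phagosomes and early endosomes, counted above with the late endosome, lysosome and autophagy genes. It was at 81.6 ± 8.60 in PBS and 85.8 ± 1.55 in PFF (SD, n = 3 in each group, as for all group values below). Rab24, an autophagy-related member, was at 88.0 ± 3.07 and 83.1 ± 5.01, and Rab31 at 59.9 ± 4.61 and 50.1 ± 12.7. Rab21, which carries integrins through early endosomes, was at 98.4, 97.7 and 97.8 in PBS and at 97.3, 95.2 and 97.0 in PFF, all lower, as at 6.38% of all regions with a peak in every library. None of the 4 passed the adjusted threshold of the test described below in any comparison.

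The mean number of Rab promoters with a peak was highest with PFF alone. Of the 97 promoter regions, 72.3 ± 8.5 had a peak under PBS, 76.7 ± 3.06 under PFF, 71.0 ± 2.00 after MLi-2 and 71.3 ± 2.31 after the ASO. The PFF libraries, with 74 to 80, lay above those with MLi-2, with 69 to 73, and the PBS libraries spanned both, with 64 to 81. The shares of the Rab promoters, 74.6%, 79.0%, 73.2% and 73.5% in the same order, followed those of the promoter regions of all protein-coding genes, 66.3%, 70.1%, 63.9% and 66.8%, in having PFF highest and MLi-2 lowest. The intronic regions with a peak numbered 92.0 ± 17.6, 96.3 ± 11, 84.3 ± 1.15 and 91.0 ± 15.1 of 192. These shares, 47.9%, 50.2%, 43.9% and 47.4%, were near those of the introns of all protein-coding genes, 46.7%, 50.4%, 42.8% and 49.9%. Promoters were the steadier class, with 56 of 97 (57.7%) present in all 12 libraries and 39 of 192 introns (20.3%), beside 49.9% and 22.5% for the promoter and intron regions of all protein-coding genes. A single library accounted for 75 of the 321 regions, 55 of them intronic.

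Regions were next compared by presence. A region was called gained when it had a peak in 3 of 3 libraries of the first group and 0 of 3 of the second, and lost in the opposite case. An exact test of 3 against 3 libraries cannot go below p = 0.1, so these calls carry no test. In PFF against PBS, 2 of 277 Rab regions were gained, beside 1.1% of all regions detected in at least 1 of these 6 libraries, and 0 were lost, beside 0.405%. In PFF+MLi-2 against PFF, 2 of 263 were gained (all regions 0.374%) and 2 lost (all regions 1.64%). In PFF+Rab5 ASO against PFF, 2 of 285 were gained (all regions 2.64%) and 5 lost (all regions 1.94%). Against PBS, PFF+MLi-2 gained 1 of 264 (all regions 0.225%) and lost 0 (all regions 0.577%), and PFF+Rab5 ASO gained 2 of 281 (all regions 2.59%) and lost 5 (all regions 0.991%). These 21 calls came from 14 regions of 11 genes, of which 12 were intronic, 1 exonic and 1 a promoter. The other 31 Rab genes had no gained or lost region. With the ASO all gains and losses were intronic. Against PFF they were 2 gained and 5 lost of 165 Rab introns (all introns 2.65% and 2.36%). Against PBS they were 2 gained and 5 lost of 162 (all introns 2.66% and 1.19%). The promoter gained with MLi-2 against PFF was 1 of 90 (all promoters 0.166%). Comparisons that share the PFF or the PBS libraries are not independent of each other.

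The regions gained with PFF were in Rab7b, which acts between late endosomes and the trans-Golgi network, and in Rab18. The Rab7b region was exonic (chr1:131714822-131714985) and stood at the 1.70, 53.2 and 66.7 percentile in the 3 PFF libraries, with 9, 16 and 19 fragments at the summit. It also had a peak in 2 PFF+MLi-2 libraries and 1 PFF+Rab5 ASO library. The Rab18 region was intronic (chr18:6740915-6741149, 7.0 kb from the nearest start site) and stood at 8.56, 32.2 and 39.6 in PFF. It had no peak in any PBS or PFF+MLi-2 library and was at 79.3, 46.1 and 72.3 in PFF+Rab5 ASO, with 9 to 12 fragments in PFF and 14 to 21 with the ASO. It was therefore also gained in PFF+Rab5 ASO against PBS and lost in PFF+MLi-2 against PFF. The pattern of 3 of 3 in PFF and in PFF+Rab5 ASO with 0 of 3 in the other groups was found at 1 of 321 Rab regions and at 0.0451% of all regions, a pattern picked out after it was seen.

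With MLi-2, the region gained both against PFF and against PBS was an intron of Rab7 (chr6:88001202-88001337). It had peaks at the 11.7, 42.1 and 29.1 percentile in the PFF+MLi-2 libraries and in none of the other 9. A promoter region of Rab2a, which acts between the Golgi and the endoplasmic reticulum (chr4:8535025-8535156, 0.488 kb upstream of the start site), was gained against PFF at 7.62, 8.68 and 6.27. It was also present in PBS replicate 1 and in 2 PFF+Rab5 ASO libraries. Besides the Rab18 intron, the region lost was an intron of Rab27a (chr9:73082756-73082960), which tethers secretory granules to the plasma membrane. Its PFF percentiles were 18.5, 18.1 and 19.1, with 10 fragments in each library. It was present in 2 PBS libraries and 1 PFF+Rab5 ASO library.

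Rab5 ASO libraries lacked 3 intronic regions that all other libraries had, in Rab20 (chr8:11458286-11458503), Rab27a (chr9:73071314-73071528) and Rab40c (chr17:25888945-25889121), a member that works as a ubiquitin ligase adaptor. The Rab27a region ranged from 34.0 to 67.1 across PBS, from 39.9 to 75.2 across PFF and from 43.9 to 65.0 across PFF+MLi-2 libraries, with 14 to 25 fragments. The Rab20 region ranged from 4.73 to 61.8 and the Rab40c region from 4.39 to 69.1 over the 9 libraries. Presence in all 9 other libraries with absence in all 3 ASO libraries was found at 3 of 321 Rab regions (0.935%) and at 482 of 263785 regions overall (0.183%), a pattern also picked out after it was seen. The part of depth and peak width in these absences was not tested.

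The other losses with the ASO were in introns of Rab3c (chr13:110175616-110176077) and Rab7 (chr6:88027573-88027710) against PFF, and of Rab30 (chr7:92782695-92782862) and Rab31 (chr17:65728288-65728458) against PBS. The Rab3c region was at 70.2, 50.0 and 43.4 in PFF, at 54.6, 28.7 and 56.6 in PFF+MLi-2, and was present in 2 of 3 PBS libraries. An intron of Rab21 (chr10:115293727-115293850) was gained against PFF, at 76.4, 66.1 and 50.4 in the ASO libraries and at 29.3 in PBS replicate 1. An intron of Rab27a (chr9:73050726-73050840) was gained against both, at 42.2, 9.12 and 13.2 in the ASO libraries and absent from the other 9. Summit depth over all 21 calls ran from 9 to 25 fragments with a median of 14, beside a median of 21.5 for the Rab introns present in all 12 libraries.

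**Figure D2:**
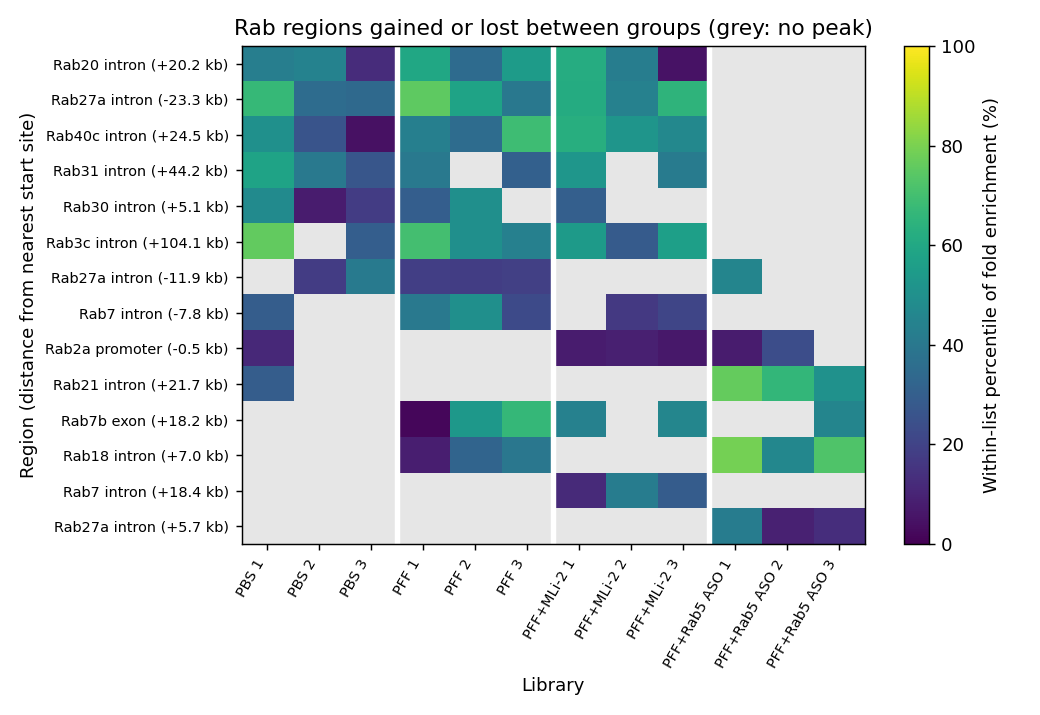
The 14 Rab regions gained or lost in any of the 5 comparisons (rows, with the distance from the nearest start site in kb) in the 12 libraries (columns), coloured by within-list percentile of fold enrichment, with grey for no peak. Introns of Rab20, Rab27a and Rab40c have a peak in the 9 libraries without Rab5 ASO and in 0 of the 3 with it.

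Height was compared at the 108 Rab regions that had a peak in all 12 libraries, 56 of them promoters and 39 introns. Ranks of fold enrichment within a library were turned into normal scores and tested with limma over all 72465 such regions, with Benjamini-Hochberg adjustment over all of them. Of those, 18390 were promoters and 23041 introns of protein-coding genes, so shares over all regions rest on another mix of classes than the Rab regions. An effect is a difference in normal scores between group means, on which 1 unit is 1 SD of the regions of a library. Counts of regions with all libraries of a group above or below another use percentiles in the whole lists, which differ in length, and not these scores.

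No Rab region passed the adjusted threshold for PFF. In PFF against PBS limma called 0 of 108 Rab regions (all regions 0%), with 9 at an unadjusted p under 0.05, and the all-region count was 0 as well, with 7044 at that unadjusted p. The median effect over the Rab promoters was -0.07, beside -0.08 over all protein-coding promoters, and over the Rab introns 0.08, beside 0.01. All 3 PFF libraries lay above all 3 PBS libraries at 11 of 108 Rab regions (all regions 8.25%) and below at 9 (all regions 6.38%). The largest promoter effects were at Rab13, a Rab of recycling endosomes and tight junctions. Its internal promoter (chr3:90220631-90220915) went from 93.1 ± 1.60 in PBS to 85.0 ± 4.65 in PFF, an effect of -0.61 ± 0.21 (SE) with an adjusted p of 0.393. The largest intron effects were at Rab3c and Rab31, and the Rab31 region (chr17:65683808-65684159) was at 72.1, 56.2 and 49.8 in PBS and 84.3, 78.9 and 81.5 in PFF, without overlap, at an effect of 0.87 ± 0.23 and an adjusted p of 0.277.

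MLi-2 likewise gave no Rab call. In PFF+MLi-2 against PFF limma called 0 of 108 (all regions 0%), with 11 Rab regions and 8289 of all regions at an unadjusted p under 0.05. All 3 PFF+MLi-2 libraries were above all 3 PFF libraries at 14 of 108 Rab regions (all regions 5.23%) and below at 14 (all regions 12.9%). The lists held 145497 to 147991 peaks with MLi-2 and 151900 to 172377 with PFF alone, while 51.7% of the limma effects over all regions were above 0. The part of list length in these counts was not tested. Rab promoters had a median effect of 0.12, beside 0.09 for all promoters, with 39 of 56 above 0 (69.6%, beside 64.3%). Rab introns had a median of -0.07, beside -0.03, with 12 of 39 above 0 (30.8%, beside 46.9%). At the internal Rab13 promoter the MLi-2 libraries stood at 93.8, 92.0 and 93.7, above the 87.5, 87.8 and 79.6 of PFF, an effect of 0.64 ± 0.20 with an adjusted p of 0.31. The second promoter region of Rab34, a Golgi and cilium Rab (chr11:78189299-78189658), was at 73.4 ± 4.95 against 59.3 ± 5.52 in PFF, an effect of 0.70 ± 0.22 with an adjusted p of 0.315. In PFF+MLi-2 against PBS limma called 0 of 108 Rab regions (all regions 0%), with 7 Rab regions and 4179 of all regions at an unadjusted p under 0.05. The MLi-2 libraries were all above PBS at 3 Rab regions (all regions 3.12%) and all below at 7 (all regions 7.48%).

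With the Rab5 ASO, 3 of 108 Rab regions (2.78%) passed the adjusted threshold against PFF, near the share of all regions (3.83%). Against PBS the count was 0 of 108 (all regions 1.63%), with 13 Rab regions and 13527 of all regions at an unadjusted p under 0.05. The counts over all regions rested on few libraries. The 2772 calls against PFF became 0 without ASO replicate 1, and the 1184 against PBS became 0 with the replicate number as a block and 0 to 35 with 1 library left out. All 3 ASO libraries were above all 3 PFF libraries at 21 Rab regions (all regions 13.9%) and below at 10 (all regions 11.9%), and above PBS at 18 (all regions 13.3%) and below at 7 (all regions 9.03%). The median effect over the 108 regions was 0.03 against PFF, beside 0.01 over all regions. By class, effects against PFF were above 0 at 57.1% of Rab promoters, beside 60.8% of all promoters, and at 43.6% of Rab introns, beside 47.45% of all introns.

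The highest of the 3 calls was an intron of Rab3c (chr13:110141296-110141656, 138 kb from the nearest start site). Rab3c belongs to the Rab3 group, which controls the docking of synaptic vesicles. The region was at 35.4, 11.1 and 58.5 for PBS, 14.3, 36.6 and 8.70 for PFF, 42.1, 25.5 and 47.0 after MLi-2 and 59.3, 75.5 and 64.9 after the ASO. Its summit held 11 to 17 fragments for PBS, 11 to 14 for PFF, 13 to 17 after MLi-2 and 19 to 24 after the ASO. The ASO libraries lay above all other 9. The rise against PFF was 1.46 ± 0.26 (limma adjusted p = 0.0243).

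The next was an exon of Rab3b, another Rab3 member (chr4:108941208-108941366). It stood at 67.4, 63.1 and 70.4 for PBS, 64.6, 26.5 and 41.3 for PFF, 58.3, 43.8 and 68.8 after MLi-2 and 81.0, 83.3 and 79.6 after the ASO. Here too the ASO libraries were above the other 9, with 26 to 28 fragments at the summit against 13 to 22. The rise against PFF was 1.35 ± 0.27 (limma adjusted p = 0.0321).

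The last call was the lead promoter of Rab7b (chr1:131696439-131696779), which was lower with the ASO. Its percentiles were 66.2, 69.7 and 65.2 for PBS, 74.3, 81.8 and 71.2 for PFF, 43.9, 46.3 and 78.7 after MLi-2 and 41.8, 58.0 and 22.1 after the ASO. The ASO libraries lay below all PBS and PFF libraries and overlapped those with MLi-2. The effect against PFF was -1.22 ± 0.26 (limma adjusted p = 0.0392) and against PBS -0.87 ± 0.27 (adjusted p = 0.117). All 3 calls depended on the set of libraries, since limma called 0 or 1 Rab region when any 1 of the 6 libraries was left out. Leaving out replicate 1 or 3 of the ASO group or replicate 3 of the PFF group gave 0.

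**Figure D3:**
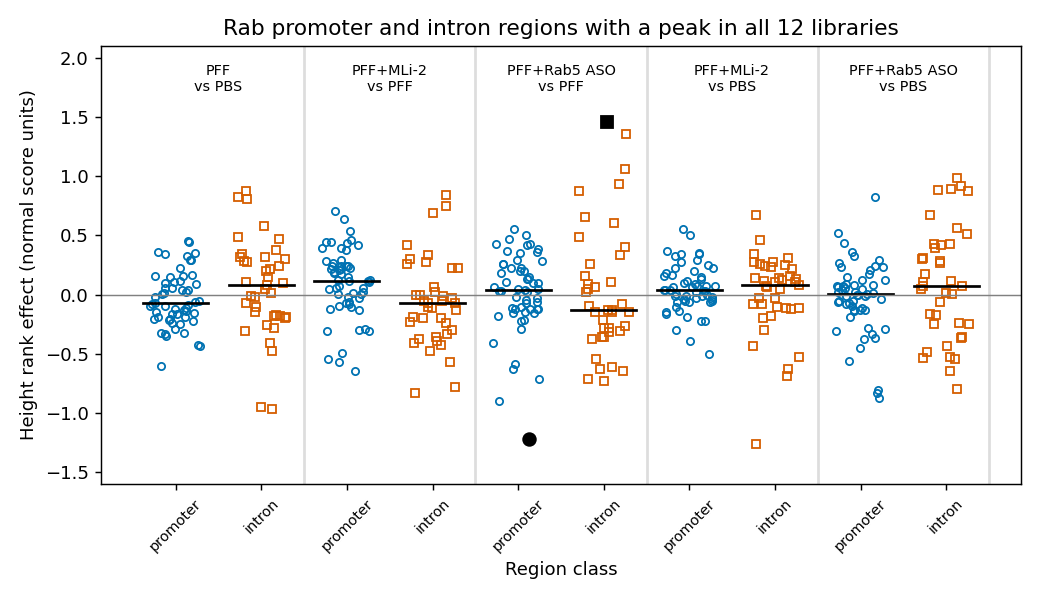
Height rank effects (vertical axis, normal score units) of the 56 Rab promoters (circles) and 39 Rab introns (squares) with a peak in all 12 libraries, in the 5 comparisons, with the median as a line. Filled black symbols pass the adjusted threshold, and these are an intron of Rab3c and the lead promoter of Rab7b in PFF+Rab5 ASO against PFF. The called Rab3b exon is of neither class.

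A single F test over the 4 groups called 2 of 108 Rab regions (1.85%, all regions 3.5%). The 2535 calls over all regions became 609, 498 and 277 without ASO replicate 1, 2 and 3. One was the internal Rab13 promoter (limma adjusted p = 0.0292). It stood at 94.3, 91.3 and 93.8 for PBS, 87.5, 87.8 and 79.6 for PFF, 93.8, 92.0 and 93.7 after MLi-2 and 85.3, 78.6 and 81.1 after the ASO. The PBS and MLi-2 libraries were all above the PFF and ASO libraries. The summed promoter percentile of the 4 astrocyte markers was ordered likewise, at 231 to 271 for PBS, 191 to 207 for PFF, 241 to 245 after MLi-2 and 195 to 227 after the ASO. That order held without Aldh1l1 or without Slc1a3, but not without Aqp4 or without Gfap. Aqp4 had means of 41.8, 9.58, 50.3 and 14.1 in that group order, with no peak counted as 0. Without Aqp4 the other 3 summed to 209 to 224 for PBS, 173 to 207 for PFF, 190 to 196 after MLi-2 and 193 to 208 after the ASO. Without Gfap the sums were 185 to 225, 159 to 174, 198 to 220 and 148 to 193. Aldh1l1 had means of 87.1, 86.1, 92.3 and 81.3, higher for PBS and MLi-2 than for the other groups. Slc1a3 had means of 77.7, 72.4, 66.0 and 74.5, lowest after MLi-2, and Gfap 50.7, 31.2, 34.3 and 42.7. Both means, PBS and MLi-2, were above both others at 2 of 4 astrocyte, 2 of 4 interneuron, 2 of 8 neuronal, 1 of 5 oligodendrocyte-lineage, 0 of 5 microglial and 0 of 3 endothelial markers, and below both at 0, 1, 2, 1, 0 and 0. The 1 marker that separated these libraries completely did so in the direction opposite to Rab13, which was Mbp of the oligodendrocyte lineage, at 64.3 to 73.6 for PBS and 68.3 to 68.8 after MLi-2, below 75.7 to 77.3 for PFF and 77.1 to 85.7 after the ASO. The 8 neuronal markers summed to 519 to 577 for PBS, 507 to 552 for PFF, 562 to 582 after MLi-2 and 567 to 584 after the ASO. With any 1 neuronal marker left out the PFF libraries stayed below the ASO libraries. They overlapped those with MLi-2 when Tbr1 was left out. The summed level of the 4 interneuron markers was 204 to 208 for PFF and 222 to 245 in the other 3 groups. Without Gad1, whose means were 50.9, 22.4, 48.3 and 38.9, the other 3 summed to 171 to 196 for PFF and 179 to 209 in the other groups, which overlap. The sums also overlapped without Gad2, at 144 to 159 for PFF and 156 to 199 in the other groups. They stayed apart without Dlx1, at 133 to 143 against 150 to 180, and without Dlx2, at 133 to 151 against 154 to 184. Gad2 had means of 52.0, 54.0, 47.6 and 63.8, Dlx1 71.7, 68.0, 72.2 and 62.9, and Dlx2 67.7, 62.3, 63.7 and 65.7. The part of cell composition in the Rab results was not tested. The lead promoter of Rab13, which it shares with Rps27, lay at 98.0 ± 0.841 over the 12 libraries.

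The other was an exon of Rab27b (chr18:69984632-69984975), which docks secretory and synaptic vesicles (limma adjusted p = 0.0327). It stood at 81.3, 74.6 and 75.4 for PBS, 86.3, 90.03 and 83.9 for PFF, 60.3, 61.1 and 62.2 after MLi-2 and 87.8, 77.0 and 79.0 after the ASO. The MLi-2 libraries were below all other 9. In the comparison of PFF+MLi-2 with PFF alone its effect was -1.05 ± 0.19, with an adjusted p of 0.187. Of 14 alternatives to the F test, 12 of them with 1 library left out, the Rab27b exon passed in 5, at adjusted p up to 0.0727, and the Rab13 promoter in 9, at adjusted p up to 0.0824. Leaving out PFF+MLi-2 replicate 1 or any 1 of the PFF+Rab5 ASO libraries left 0 Rab regions past the threshold, and over all single libraries left out the count was 0 to 3.

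**Figure D4:**
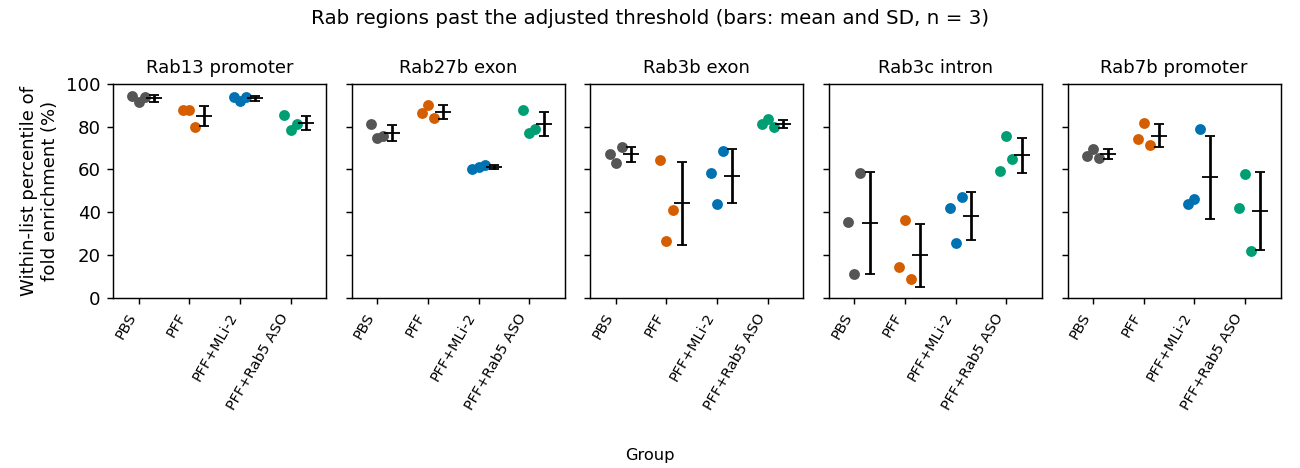
Within-list percentile of fold enrichment (vertical axis, %) in each library (points) at the 5 Rab regions past the adjusted threshold in PFF+Rab5 ASO against PFF or in the F test over 4 groups, with mean and SD beside the points (n = 3). The ASO libraries are the highest at the Rab3b exon and the Rab3c intron, and the PFF+MLi-2 libraries the lowest at the Rab27b exon.

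Rab3c held more regions than any other Rab gene, 45, of which 40 were intronic and 12 had a peak in every library. The gene is also the longest of the 42, at 227 kb, followed by Rab27b at 162 kb with 13 regions and Rab31 at 121 kb with 25. The mean percentile of its lead promoter was 98.9 ± 0.165 for PBS, 98.5 ± 0.256 for PFF, 99.4 ± 0.270 after MLi-2 and 98.6 ± 0.571 after the ASO. The libraries with MLi-2 lay above those with PFF alone there, without overlap, at an effect of 0.44 ± 0.19 and an adjusted p of 0.432. In PFF against PBS 5 of the 12 regions were at an unadjusted p under 0.05, 3 higher and 2 lower, beside 9.72% of all regions. The count was 5 in PFF+MLi-2 against PFF (all regions 11.4%), 5 in PFF+Rab5 ASO against PFF (all regions 21.1%), 1 in PFF+MLi-2 against PBS (all regions 5.77%) and 4 in PFF+Rab5 ASO against PBS (all regions 18.7%). Of these the intron described above was the one that passed the adjusted threshold.

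Among the Rab3c introns with the greatest effects, 1 (chr13:110218531-110218844) was at 78.8, 74.6 and 62.8 for PBS, 18.5, 50.0 and 68.2 for PFF, 48.0, 7.12 and 41.5 after MLi-2 and 86.0, 70.3 and 88.1 after the ASO. Its effect was -0.96 ± 0.38 in PFF against PBS (adjusted p = 0.447), -1.27 ± 0.35 in PFF+MLi-2 against PBS (adjusted p = 0.815) and 1.36 ± 0.40 in PFF+Rab5 ASO against PFF (adjusted p = 0.0884). One more (chr13:110097480-110097766) was at 60.4, 66.8 and 67.7 in PBS and 8.56, 50.0 and 51.5 in PFF, an effect of -0.95 ± 0.36 (adjusted p = 0.426). Its effects against PFF were 0.84 ± 0.35 with MLi-2 (adjusted p = 0.411) and 1.06 ± 0.37 with the ASO (adjusted p = 0.139). These comparisons share the PFF libraries, in which replicate 1 was the lowest at both regions, so their effects are not independent. Without PFF replicate 1 the effect of PFF against PBS was -0.53 at the first region and -0.51 at the second, and the effects of MLi-2 and the ASO against PFF at the second were 0.40 and 0.62. The summit of the first held 15 to 20 fragments in PBS and 10 to 16 in PFF, and that of the second 15 to 16 and 9 to 13.

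A Rab3c intron with effects of the opposite direction (chr13:110198898-110199303) was at 29.3, 66.8 and 62.8 for PBS, 79.7, 80.1 and 68.2 for PFF, 48.0, 39.6 and 62.2 after MLi-2 and 79.3, 83.2 and 72.3 after the ASO. Its effect was 0.80 ± 0.36 in PFF against PBS (adjusted p = 0.513), -0.83 ± 0.25 in PFF+MLi-2 against PFF (adjusted p = 0.297) and 0.89 ± 0.36 in PFF+Rab5 ASO against PBS (adjusted p = 0.215). Without PBS replicate 1, the lowest library there, the effects of PFF and of the ASO against PBS were 0.34 and 0.43. The summit held 11 to 16 fragments for PBS, 16 to 20 for PFF, 12 to 16 after MLi-2 and 18 to 22 after the ASO. The other 2 that were higher with PFF at an unadjusted p under 0.05 (chr13:110211323-110212025 and chr13:110257071-110257440) went from 78.1 ± 3.38 to 89.1 ± 1.97 and from 59.5 ± 12.9 to 80.7 ± 2.17, with adjusted p of 0.396 and 0.398. An intron farther along the gene (chr13:110081283-110081511) was at 88.0 ± 1.44 with the ASO and 63.7 ± 30.4 in PBS, an effect of 0.92 ± 0.42 (adjusted p = 0.275) that ran from 0.39 without PBS replicate 2 to 1.44 without PBS replicate 3.

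**Figure D5:**
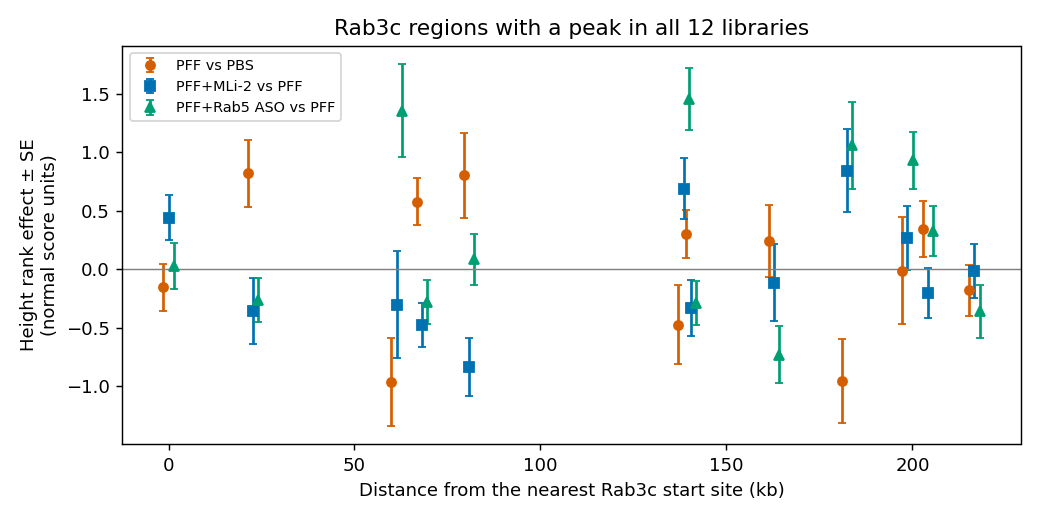
Height rank effect with its standard error (vertical axis, normal score units) at the 12 Rab3c regions with a peak in all libraries, by distance from the nearest start site (horizontal axis, kb), in 3 comparisons offset sideways for legibility. Effects of both signs are spread over the introns and reach 1.46 in PFF+Rab5 ASO against PFF, 138 kb from the nearest start site.

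Other promoter regions with large effects did not pass the adjusted threshold. Lead promoters of Rab2a, at 93.4, 93.0 and 93.9 in PBS and 96.8, 98.0 and 96.5 in PFF+MLi-2, gave an effect of 0.50 ± 0.20 (adjusted p = 0.85), and of Rab32, a Rab of lysosome-related organelles, 0.55 ± 0.27 (adjusted p = 0.879), which was 0.32 without PFF+MLi-2 replicate 1. The lead promoter of Rab26 was at 35.5 ± 15.5 in PBS and 63.0 ± 8.65 in PFF+Rab5 ASO, an effect of 0.83 ± 0.30 (adjusted p = 0.172). A second promoter region of Rab27b (chr18:70052957-70053631) was at 91.5 ± 2.64 in PFF and 76.2 ± 10.1 in PFF+Rab5 ASO, an effect of -0.90 ± 0.27 (adjusted p = 0.0924). A second promoter region of Rab3b (chr4:108890899-108891204) was at 82.8 ± 3.00 for PFF alone, 65.3 ± 8.66 after MLi-2 (adjusted p = 0.364) and 65.2 ± 17.2 after the ASO (adjusted p = 0.205). The lead promoter of Rab3b was at 94.9 ± 1.22 in PBS and 97.9 ± 0.777 in PFF, an effect of 0.44 ± 0.20 (adjusted p = 0.523), and a second promoter region of Rab13 (chr3:90214081-90214233) at 49.2 ± 9.79 and 64.1 ± 3.64, an effect of 0.45 ± 0.22 (adjusted p = 0.537). A second promoter region of Rab11a, which marks recycling endosomes (chr9:64736911-64737155), was at 45.2 ± 26.4 in PBS and 25.7 ± 2.32 in PFF+MLi-2, an effect of -0.50 ± 0.39 (adjusted p = 0.948) that ran from -1.01 without PBS replicate 1 to -0.13 without PBS replicate 2. Among introns, a Rab27a region (chr9:73085580-73085781) was at 74.4 ± 12.1 in PFF and 49.8 ± 6.72 in PFF+MLi-2, an effect of -0.78 ± 0.29 (adjusted p = 0.365). A Rab31 region (chr17:65708942-65709180) was at 54.8 ± 17.9 in PBS and 28.5 ± 8.15 in PFF+MLi-2, an effect of -0.69 ± 0.28 (adjusted p = 0.855).

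The proteins that load, unload and read Rabs were described by the same measures. Among genes listed as GDP dissociation inhibitors, prenylation factors, exchange factors, activating proteins and effectors, 100 had regions here, 1215 in all, and 2 further listed genes were not analysed here. A promoter region in all 12 libraries was found for 93 of them. In PFF+Rab5 ASO against PFF 8 of 349 of their regions (2.29%, all regions 3.83%) passed the adjusted threshold, 4 of them higher, and 0 to 3 did with 1 library left out, 0 of them without ASO replicate 1. Against PBS 5 did (1.43%, all regions 1.63%), 2 of them higher, and 0 with any 1 library left out or with the replicate number as a block. In the comparisons of PFF with PBS, of PFF+MLi-2 with PFF and of PFF+MLi-2 with PBS the count was 0, with 26, 34 and 20 at an unadjusted p under 0.05, beside 9.72%, 11.4% and 5.77% of all regions. The F test called 13 (3.72%, all regions 3.5%), and 1 to 10 with 1 library left out. The 3 Rab5 genes and 7 reported LRRK2 substrate Rabs also had a promoter region in all 12 libraries, and 1 further listed substrate was not analysed here.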

How the data were processed

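The 12 ATAC-seq libraries of cortical neurons were used as the peak lists the authors deposited, 1 list per library without pooling. Per the labels and the study's methods, reads were trimmed with Trim Galore 0.6.7, checked with FastQC, aligned to GRCm38 with Bowtie2 2.5.1, and peaks were called with MACS2 2.2.7.1. The MACS2 options, the handling of duplicates and any shift for the transposase cut are not given in the sources used here. For each peak the authors deposited a display score, a ratio (fold enrichment over background at the summit), a −log10 p-value and a −log10 q-value, and the summit offset. The lists hold peaks only, so a region without one may have had signal under the authors' threshold.

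Peaks were merged and annotated with GENCODE vM21. Height was the within-library rank of fold enrichment, compared with limma 3.58.1 in R 4.3.3 on normal scores of the 6 libraries of each comparison, or of 12 for the F test, with Benjamini-Hochberg adjustment and a threshold of 0.05. When tested on simulated data, limma rarely recovered shifts of 1 normal score unit at 3 libraries a group, so a count of 0 does not show that heights did not differ. Fragments at a summit were recovered from fold and p-value and were whole numbers within 0.05 in 100% of peaks. They cover counting error only. The rule for named regions took every lead promoter (all 42 are plotted, and those at the ends of the order are given in words), all gained, lost and called regions, the 3 promoters and 3 introns with the greatest absolute effect in each of 5 comparisons, and the 3 smallest F test p-values. In the text the E-box promoters, 2 further Rab3c introns, the order of marker heights and the 2 presence patterns over 4 groups were picked out after their values were seen. The members, lists and tests were chosen with earlier results of these data known. Alternatives are given under the dependence on processing. Python 3.11.15, numpy 2.4.6, pandas 2.3.3, SciPy 1.17.1 and Matplotlib 3.10.9 were used.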

Additional observations from a re-analysis of the deposited data

How the results depend on the processing

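All 42 Rab genes kept a promoter region in all 12 libraries with a promoter window of 500 bp or 2 kb, with a −log10 q-value of at least 3 and with an equal number of top peaks. The counts of gained and lost Rab regions were small and moved with most settings, and the cause was not tested. In PFF against PBS the 2 gained became 0 at a −log10 q-value of at least 3, 1 where peaks had to cover 0.5 of the region or more (wide cover) and 10 when 2 of 3 libraries sufficed, and the 0 lost became 1 with wide cover and 5 with 2 of 3. In PFF+MLi-2 against PFF the 2 gained became 4 with equal numbers of top peaks, 1 with wide cover and 4 with 2 of 3, and the 2 lost became 0 with equal numbers, 1 at the stricter q-value, 6 with wide cover and 12 with 2 of 3. In PFF+Rab5 ASO against PFF the 2 gained became 1 with equal numbers, 1 at the stricter q-value, 5 with wide cover and 9 with 2 of 3, and the 5 lost became 9 with wide cover and 25 with 2 of 3. In PFF+MLi-2 against PBS the 1 gained became 0 with wide cover and 4 with 2 of 3, and the 0 lost became 1 and 7. In PFF+Rab5 ASO against PBS the 2 gained became 4 with equal numbers, 6 with wide cover and 7 with 2 of 3, and the 5 lost became 3 at the stricter q-value, 3 with wide cover and 11 with 2 of 3.

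Leaving out 1 library at a time, which relaxes the rule to 2 libraries on one side, gave 3 to 9 gained and 0 to 4 lost in PFF against PBS, 2 to 4 and 2 to 8 in PFF+MLi-2 against PFF, and 3 to 7 and 7 to 15 in PFF+Rab5 ASO against PFF. Against PBS it gave 1 to 3 gained and 0 to 4 lost with MLi-2, and 2 to 5 and 5 to 9 with the ASO.

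For height, limma's count was 0 Rab regions in PFF against PBS, PFF+MLi-2 against PFF and PFF+MLi-2 against PBS under every alternative run. Over all regions it was 0 as well, except in PFF+MLi-2 against PFF in 1 fit over all 12 libraries, which called 56 regions, 36 higher and 20 lower. The 3 regions of PFF+Rab5 ASO against PFF became 1 when ranked by −log10 p-value, 2 in 1 fit over all 12 libraries and 0 to 1 with 1 library left out. The 0 of PFF+Rab5 ASO against PBS became 1 in the fit over all 12 libraries, the internal Rab13 promoter at an adjusted p of 0.0319. The adjusted p of the 3 calls ran from 0.0203 to 0.109 over the alternatives. The F test gave 0 to 3 with 1 library left out. Same-numbered libraries of different groups had correlations of 0.00513 to 0.0788 in their deviations from the group means, none over 0.1, while 12 of 12 correlated best with their own number. The methods take a pregnancy as a replicate but the sources do not say that a number marks one, so whether the numbers pair the libraries is not known, and both fits are given. With the replicate block the Rab counts were 3 and 0 for the ASO against PFF and PBS and 2 in the F test, the values without it, while over all regions the 2772 of PFF+Rab5 ASO against PFF became 1671 and the 1184 against PBS became 0. Of 310 values of single named effects under the alternatives, 0 reversed, 18 lost and 1 gained a call. These values came from 31 effects, of which only the 3 called ones could lose a call, and all 18 losses were theirs.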
